A study of Mus musculus with 15 samples.

Results

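The immunoglobulin heavy-chain variable (Ighv) genes were taken as all genes of the deposited expression tables whose symbol starts with Ighv. The DMSO table lists 58 such genes among 16470, and the ibrutinib table lists 64 among 16428. Together, 67 Ighv genes were measured, of which 55 are in both tables. All 67 matched a functional V gene of the GENCODE M21 annotation, which holds 113 functional Ighv genes and 72 Ighv pseudogenes. They lie on the minus strand of mouse chromosome 12 (GRCm38) between 113588267 and 115953005, and they belong to 13 families, with 33 genes in family 1.

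A B cell builds its heavy chain by joining a V gene to a D and a J segment, and it then transcribes that single rearranged V gene together with a constant-region gene. Progeny of that cell keep the same V gene, so the Ighv transcripts of a B-cell leukemia are those of its clone, whereas a mixed B-cell population shows many V genes side by side. In the mouse, B-1 cells that bind phosphatidylcholine characteristically use Ighv11-2 or Ighv12-3.

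In Eμ-TCL1 mice the Eμ enhancer of the heavy-chain locus drives the TCL1 oncogene in B-cells, and the mice develop a CD5+ B-cell leukemia used as a model of chronic lymphocytic leukemia (CLL). Eμ-TCL1;p53R172H/+ mice carry, in addition, 1 mutant allele of Trp53. All mice were on a C57Bl/6 background, and all libraries carry the TCL1 transgene. B-cells were released from tumor-burdened spleens by mechanical disruption, with no sort named in the sources used here, and were cultured for 24 h with vehicle (DMSO) or with 5 μM ibrutinib, an inhibitor of Bruton's tyrosine kinase, which acts downstream of the B-cell receptor. The DMSO table holds 3 Eμ-TCL1 libraries (replicates 2, 3 and 4) and 5 Eμ-TCL1;p53R172H/+ libraries (replicates 1 to 5). The ibrutinib table holds 3 Eμ-TCL1 libraries (replicates 1, 3 and 4) and 4 Eμ-TCL1;p53R172H/+ libraries (replicates 1, 3, 4 and 5). The labels do not give the age of the mice or say whether a replicate number marks the same mouse in both tables, so p-values measure the spread between these libraries.

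Markers of other cells differed between libraries of the same group. The summed value of 12 T-cell markers was 2974.6 and 3709.2 in Eμ-TCL1;p53R172H/+ DMSO replicates 1 and 2 and 1993.0 in ibrutinib replicate 1, where the summed value of 14 B-cell markers was 355.6, 348.4 and 92.2. These 3 libraries were labeled as B-cells, yet their T-cell markers exceeded their B-cell markers. They are called the libraries with high T-cell markers below. In Eμ-TCL1;p53R172H/+ ibrutinib replicate 3 the T-cell markers also exceeded the B-cell markers, at 1302.9 against 682.4. That library was kept wherever the 3 were left out. In Eμ-TCL1 DMSO replicate 2 and ibrutinib replicate 1, the 9 measured myeloid markers summed to 29258.2 and 20735.2 and the 6 erythroid markers to 17255.0 and 14977.4, while no other library exceeded 1169.4 and 256.2. Their B-cell markers summed to 725.5 and 575.3, against 682.4 to 7107.3 in the 10 libraries that are in neither set. All 14 B-cell markers were detected in each group. Markers of B-1 cells and CLL (5 genes) summed to between 174.3 and 807.7, and those of plasma cells (6 genes measured in DMSO and 5 in ibrutinib) to between 78.1 and 1491.3. The B-1 and CLL sum hides opposite differences. In Eμ-TCL1;p53R172H/+ DMSO replicates 1 and 2 it was 652.1 and 693.5, with Spn at 524.3 and 539 and Cd5 at 104.9 and 132.3. Both genes were above their values in DMSO replicates 3 to 5 of that genotype. Cd9, Zbtb32 and Fcrl5 were all below theirs, as with Fcrl5 at 8.5 and 6.8 against 36.3 to 105.2. Xist, the transcript of the inactive X chromosome, was 868.7 or more in all 6 Eμ-TCL1 libraries. It was 837.6 or more in 3 of 9 Eμ-TCL1;p53R172H/+ libraries and at most 1.2 in the rest, and the part of the sex of the mice in the comparisons was not tested. Expression values below are the normalized values deposited by the authors, which are read counts scaled per library, so they are not corrected for gene length.

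The V sequences that carried the signal are shown as the germline coding stretch that follows the leader, with the codon of the second conserved cysteine in capitals. A rearranged heavy chain keeps this stretch and continues from its 3′ end into the D and J segments. These 7 genes are all those that held at least 10% of the Ighv signal in any library, and each is read 5′ to 3′ on the minus strand of GRCm38, from the GENCODE M21 transcripts.
Ighv1-55: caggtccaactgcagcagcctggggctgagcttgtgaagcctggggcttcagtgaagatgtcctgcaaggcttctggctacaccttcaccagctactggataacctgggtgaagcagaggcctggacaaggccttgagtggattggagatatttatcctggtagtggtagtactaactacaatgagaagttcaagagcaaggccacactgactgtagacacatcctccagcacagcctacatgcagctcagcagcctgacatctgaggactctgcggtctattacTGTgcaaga
Ighv5-9-1: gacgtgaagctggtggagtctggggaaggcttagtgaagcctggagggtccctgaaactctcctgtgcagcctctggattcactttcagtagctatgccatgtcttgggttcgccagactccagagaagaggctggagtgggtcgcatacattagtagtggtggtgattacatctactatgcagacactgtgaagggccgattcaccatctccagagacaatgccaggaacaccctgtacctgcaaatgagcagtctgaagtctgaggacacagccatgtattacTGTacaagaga
Ighv9-3: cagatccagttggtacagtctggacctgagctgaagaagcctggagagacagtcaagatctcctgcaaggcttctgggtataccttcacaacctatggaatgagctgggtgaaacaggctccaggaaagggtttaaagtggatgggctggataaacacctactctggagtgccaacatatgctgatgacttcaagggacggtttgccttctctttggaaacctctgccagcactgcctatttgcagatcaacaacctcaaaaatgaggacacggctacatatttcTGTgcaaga
Ighv6-3: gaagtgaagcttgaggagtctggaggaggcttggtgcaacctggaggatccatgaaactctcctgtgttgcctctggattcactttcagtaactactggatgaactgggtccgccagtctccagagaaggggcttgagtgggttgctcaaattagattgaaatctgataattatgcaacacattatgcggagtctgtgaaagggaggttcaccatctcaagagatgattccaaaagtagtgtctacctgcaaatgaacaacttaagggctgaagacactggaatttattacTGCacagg
Ighv12-3: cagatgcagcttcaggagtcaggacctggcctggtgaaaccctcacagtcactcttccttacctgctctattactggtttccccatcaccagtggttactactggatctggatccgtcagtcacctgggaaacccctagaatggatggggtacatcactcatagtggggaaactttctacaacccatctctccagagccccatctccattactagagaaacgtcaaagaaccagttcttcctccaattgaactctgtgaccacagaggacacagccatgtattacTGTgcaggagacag
Ighv11-2: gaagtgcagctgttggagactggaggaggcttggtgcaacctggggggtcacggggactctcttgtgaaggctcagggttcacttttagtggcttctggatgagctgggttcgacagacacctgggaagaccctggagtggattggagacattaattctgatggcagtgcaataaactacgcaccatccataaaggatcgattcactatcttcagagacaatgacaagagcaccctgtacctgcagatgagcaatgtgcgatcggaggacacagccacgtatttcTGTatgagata
Ighv1-52: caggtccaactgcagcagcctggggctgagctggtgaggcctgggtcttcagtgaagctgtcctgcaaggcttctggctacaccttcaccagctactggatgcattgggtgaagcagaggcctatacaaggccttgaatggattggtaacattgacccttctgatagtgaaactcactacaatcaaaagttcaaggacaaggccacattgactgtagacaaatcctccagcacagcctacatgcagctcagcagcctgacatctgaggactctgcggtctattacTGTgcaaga

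The coordinates of these stretches are chr12:115208095-115208388 for Ighv1-55, chr12:113736111-113736406 for Ighv5-9-1, chr12:114140692-114140985 for Ighv9-3, chr12:114391712-114392010 for Ighv6-3, chr12:114366521-114366819 for Ighv12-3, chr12:114048241-114048536 for Ighv11-2 and chr12:115145487-115145780 for Ighv1-52. Each lies in the second exon of its gene. The cysteine codon is TGC in Ighv6-3 and TGT in the other 6 genes. Over the 21 pairs of these genes, identity ranged from 54.2% (Ighv9-3 with Ighv12-3) to 89.5% (Ighv1-55 with Ighv1-52). Reads can be shared with close relatives. Of the 256 windows of 50 bases in the V exon of Ighv1-55, 106 (41.4%) also occur in another annotated Ighv gene or pseudogene. That share was 61.3% in Ighv1-52, whose closest relative is Ighv1-61 (98.6% identity), and 48.8% in Ighv11-2, whose closest relative is Ighv11-1 (98.6% identity). Neither relative is a listed member. It was 27.3% in Ighv9-3, 24.4% in Ighv5-9-1, 16.5% in Ighv6-3 and 0% in Ighv12-3.

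In each of the 15 libraries, a single Ighv gene held most of the summed Ighv value. The share of this dominant gene ranged from 53.5% in Eμ-TCL1 ibrutinib replicate 1 to 99.5% in Eμ-TCL1 ibrutinib replicate 4, and it was at least 90% in 5 libraries. Only 6 different genes were dominant. Ighv1-55 and Ighv9-3 were dominant in Eμ-TCL1 libraries, Ighv6-3, Ighv12-3, Ighv11-2 and Ighv1-52 were dominant in Eμ-TCL1;p53R172H/+ libraries, and 0 genes were dominant in both genotypes. This absence of overlap was not tested. Libraries of the same genotype often differed in their dominant gene too, in 37 of 51 pairs. Some libraries may share a mouse, so the number of separate leukemias behind these genes is unknown. When values were divided by exon length, the same gene was highest in 15 of 15 libraries, with shares between 54.4% and 99.4%.

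**Figure D1:**
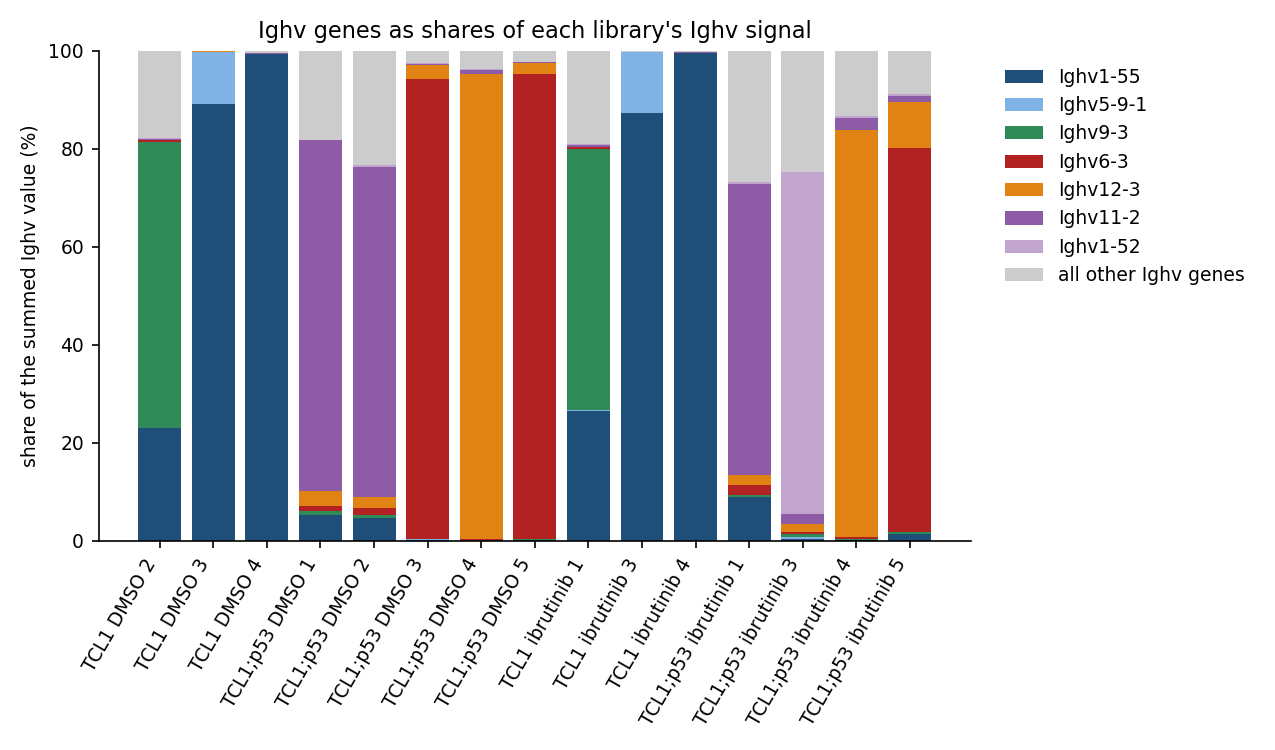
Share of each library's summed Ighv value (percent, vertical axis) held by the 7 genes that reach 10% in any library, with all other Ighv genes in gray, where each bar is 1 library named by genotype (TCL1 for Eμ-TCL1, TCL1;p53 for Eμ-TCL1;p53R172H/+), treatment and replicate number. Dark blue Ighv1-55 makes up 22.9% or more of each of the 6 Eμ-TCL1 bars and at most 8.91% of the others, which are filled by the red, orange and purple genes.

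Ighv1-55 (ENSMUSG00000095589) was the leading gene of the Eμ-TCL1 libraries. Its normalized value was 198.6, 817.4 and 1093.9 in DMSO replicates 2, 3 and 4, which is 22.9%, 89.1% and 99.3% of their Ighv signal. In ibrutinib it was 162.7, 765.4 and 1146.3 in replicates 1, 3 and 4. All 6 Eμ-TCL1 libraries thus had Ighv1-55 at 162.7 or more, and it ranked first in 4 of them. In Eμ-TCL1;p53R172H/+ it was 1.9, 1.9, 1.3, 0.3 and 1.3 in DMSO replicates 1 to 5 and 1.8, 0.5, 0.5 and 5.4 in ibrutinib replicates 1, 3, 4 and 5. The 2 genotypes did not overlap for this gene in either table. The tables may hold libraries of the same mice, so they may not be independent of each other.

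Ighv9-3 (ENSMUSG00000096459) was dominant in the remaining Eμ-TCL1 libraries, at 506.7 (58.4%) in DMSO replicate 2 and 328.3 (53.5%) in ibrutinib replicate 1. It did not exceed 1.9 in the other 13 libraries. These 2 libraries, in which myeloid and erythroid markers were high, also had the broadest set of Ighv genes. In them, 41 of 58 and 35 of 64 genes reached a value of 1, against 2 to 16 genes in every other library. Ighv1-26, at 24.3 and 20.9, and Ighv2-4, at 23.1 and 19.2, followed Ighv9-3 and Ighv1-55, and in all, 27 of the 54 other members in both tables were higher in these 2 libraries than in any of the other 13. Of all 15869 genes in both tables, 15.5% were. The part of the other cells in this breadth was not tested.

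Ighv5-9-1 (ENSMUSG00000095210) was the second gene of the Eμ-TCL1 replicate 3 libraries. It was 98.8 (10.8%) in DMSO and 109.4 (12.5%) in ibrutinib, and at most 0.9 in the other 13 libraries. Together with Ighv1-55 it made up 99.8% of the Ighv signal of DMSO replicate 3, in which 51 of 58 Ighv genes were listed at 0. Its V stretch is 63.9% identical to that of Ighv1-55. Eμ-TCL1 replicate 4 had no second gene of this size, since all Ighv genes other than Ighv1-55 summed to 7.8 in DMSO and 5.9 in ibrutinib.

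Ighv6-3 (ENSMUSG00000076677) was dominant in 3 Eμ-TCL1;p53R172H/+ libraries. It was 576.7 (93.8%) in DMSO replicate 3, 664.9 (94.9%) in DMSO replicate 5 and 337.5 (78.2%) in ibrutinib replicate 5, and no more than 3.5 elsewhere. Of the other 54 members in both tables, 2 of low level were higher in these 3 libraries than in any other, against 0.8% of all 15869 genes. Ighv6-7, with 87.6% identity to Ighv6-3, was between 0.5 and 4.0 in them and at most 0.4 elsewhere. Ighv5-9, with 72.6% identity, was between 0.7 and 3.1 in them and at most 0.2 elsewhere.

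Ighv12-3 (ENSMUSG00000076676), 1 of the V genes of phosphatidylcholine-binding B-1 cells, was dominant in Eμ-TCL1;p53R172H/+ replicate 4 under both treatments. It was 606.3 (94.9%) in DMSO and 476.0 (83.0%) in ibrutinib. It was also the second gene of the Ighv6-3 libraries, at 17.6 and 15.8 in DMSO replicates 3 and 5 and 40.5 in ibrutinib replicate 5. The V stretches of these genes are 57.9% identical. In Eμ-TCL1 libraries Ighv12-3 was at most 0.8, and in the other 4 Eμ-TCL1;p53R172H/+ libraries it was 1.1, 0.9, 0.4 and 3.0. In replicate 4, Ighv1-39 came second, at 9.4 in DMSO and 32.1 in ibrutinib, against at most 0.8 in every other library.

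Ighv11-2 (ENSMUSG00000096108), the other V gene of phosphatidylcholine-binding B-1 cells, was dominant in the 3 Eμ-TCL1;p53R172H/+ libraries with high T-cell markers. Its value was 26.2 (71.6%) and 27.1 (67.2%) in DMSO replicates 1 and 2 and 12 (59.4%) in ibrutinib replicate 1. These values were far below those of the dominant genes of other libraries, and the whole Ighv signal of these libraries was only 36.6, 40.3 and 20.2. A bulk library cannot tell fewer B-cells from less Ighv RNA per B-cell. Ighv11-2 was detected in all 15 libraries and was 14.1 in ibrutinib replicate 4, where Ighv12-3 was dominant, so its level there was within the range of the libraries it dominated.

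Ighv1-52 (ENSMUSG00000095204) was dominant in 1 library, Eμ-TCL1;p53R172H/+ ibrutinib replicate 3, at 124.2 (69.7%), and was at most 2.7 in the other 14. Ighv1-78, at 8.2, came second in it and was at most 1.5 elsewhere. In DMSO replicate 3 of the same genotype, Ighv1-52 was 0.3 and Ighv6-3 was dominant. Among the 6 replicate numbers of a genotype that occur in both tables, this was the only one with different dominant genes.

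**Figure D2:**
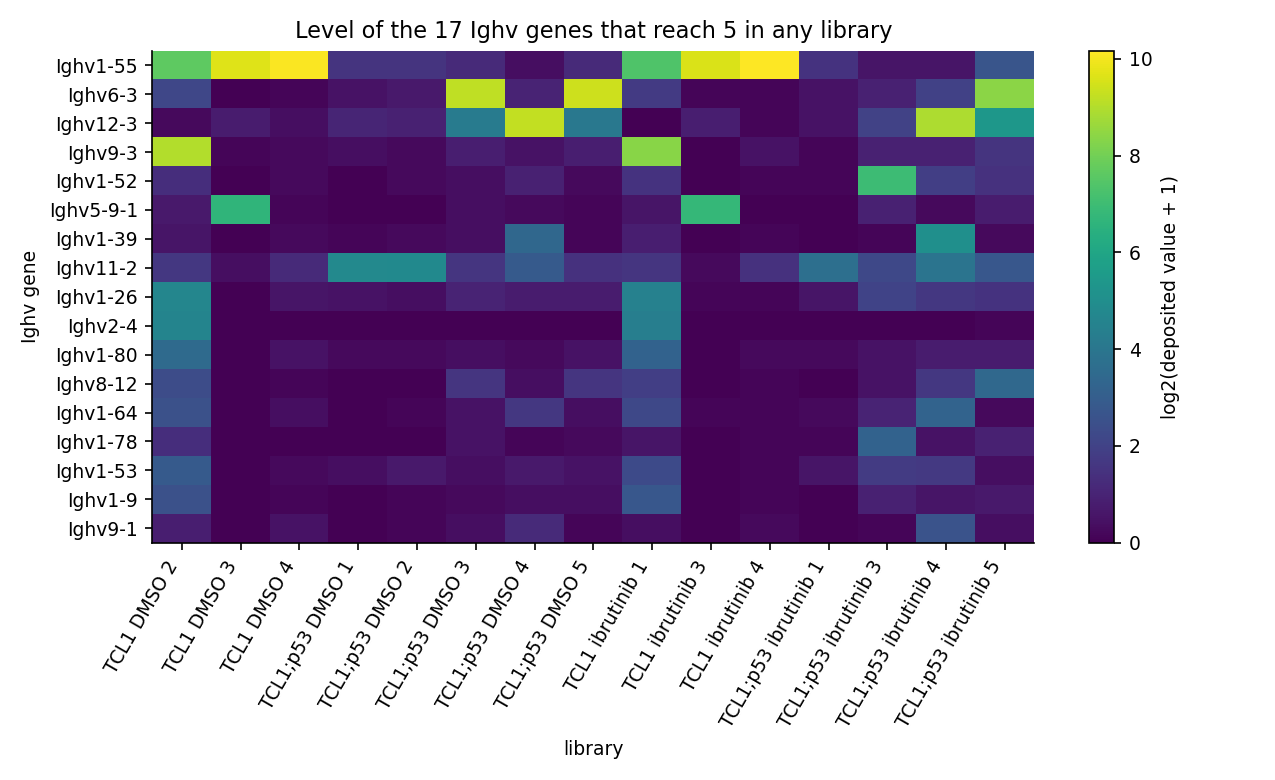
Level of the 17 Ighv genes that reach a value of 5 in any library, as log2 of the deposited value plus 1 (color), by gene (rows) and library (columns; TCL1 for Eμ-TCL1, TCL1;p53 for Eμ-TCL1;p53R172H/+). Most libraries have 1 or 2 bright cells, and Eμ-TCL1 DMSO replicate 2 and ibrutinib replicate 1 have the most genes of intermediate level.

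Most members were low. Of the 67 genes, 50 stayed below 5 in every library and 14 stayed below 1. Of the 17 that reached 5, 6 reached 50, namely Ighv1-55, Ighv6-3, Ighv12-3, Ighv9-3, Ighv1-52 and Ighv5-9-1. Among the rest, Ighv8-12 was highest in Eμ-TCL1;p53R172H/+ ibrutinib replicate 5, at 9.8, and Ighv1-64 in ibrutinib replicate 4, at 8.4. Ighv1-80 reached 10.4 and 8.1 in the Ighv9-3 libraries and at most 0.7 elsewhere. Ighv2-2 was the second gene of Eμ-TCL1;p53R172H/+ DMSO replicates 1 and 2, at 2.3 and 3.1. The high genes are scattered over the locus, from Ighv5-9-1 at 313 kb from Ighm to Ighv1-55 at 1785 kb, within the 2365 kb that hold all 67 members.

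How evenly the Ighv signal was spread was summarized by the effective number of genes, the inverse Simpson index of the shares, which is 1 when a single gene holds everything. In DMSO it was 2.53, 1.24 and 1.01 in Eμ-TCL1 replicates 2, 3 and 4 and 1.92, 2.16, 1.14, 1.11 and 1.11 in Eμ-TCL1;p53R172H/+ replicates 1 to 5. The ranges of the genotypes overlapped. In ibrutinib it was 2.79, 1.29 and 1.01 in Eμ-TCL1 replicates 1, 3 and 4 and 2.70, 2.04, 1.44 and 1.61 in Eμ-TCL1;p53R172H/+ replicates 1, 3, 4 and 5. Here too the ranges overlapped, and Eμ-TCL1 replicate 4 stood closest to a single gene under both treatments.

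The genotypes did not differ detectably in how strongly 1 gene dominated. In DMSO the dominant gene held 82.3% ± 21.3 (SD, n = 3) of the signal of Eμ-TCL1 libraries and 84.5% ± 13.8 (SD, n = 5) of that of Eμ-TCL1;p53R172H/+ libraries, a difference of 2.22 percentage points (two-sided exact permutation test, p = 0.821, adjusted p = 0.875 over 6 tests). In ibrutinib it was 80.1% ± 23.8 (SD, n = 3) and 72.6% ± 10.3 (SD, n = 4), a difference of -7.48 percentage points (exact permutation test, p = 0.571, adjusted p = 0.857). The effective number of genes differed by -0.05 on the log2 scale in DMSO (exact permutation test, p = 0.875, adjusted p = 0.875) and by 0.30 in ibrutinib (exact permutation p = 0.514, adjusted p = 0.857). The smallest p that these designs allow is 0.0179 in DMSO and 0.0286 in ibrutinib. The sign of both DMSO differences and of both ibrutinib differences turned when 1 library was left out, so no direction is drawn.

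The summed Ighv value was higher in every Eμ-TCL1 library than in any Eμ-TCL1;p53R172H/+ library of the same table. In DMSO it was 867.2, 917.9 and 1101.7 in Eμ-TCL1 and 36.6, 40.3, 614.9, 639.1 and 700.8 in Eμ-TCL1;p53R172H/+ replicates 1 to 5. In the ibrutinib table the sum was 614.1, 877.5 and 1152.2 in Eμ-TCL1 and 20.2, 178.1, 573.8 and 431.5 in Eμ-TCL1;p53R172H/+ replicates 1, 3, 4 and 5. The lowest values were those of the 3 libraries with high T-cell markers. On the log2 scale the difference was -2.19 in DMSO (two-sided exact permutation test, p = 0.125, adjusted p = 0.375) and -2.30 in ibrutinib (exact permutation test, p = 0.114, adjusted p = 0.375), neither past the threshold. With ranks in place of log2 values the DMSO difference gave an unadjusted exact permutation p = 0.0357. Without the 3 libraries with high T-cell markers the differences were -0.56 in DMSO and -1.27 in ibrutinib. Each had p = 0.1 (exact permutation test), the smallest that these 3 against 3 libraries allow. Eμ-TCL1;p53R172H/+ ibrutinib replicate 3, whose T-cell markers also exceeded its B-cell markers, was kept in the latter.

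The Ighv signal was set against Ighm, which encodes the IgM heavy chain. While the summed Ighv value ranged 57-fold over the 15 libraries, its ratio to Ighm ranged 3.33-fold, from 5.78 to 19.3 per 100 of Ighm. Eμ-TCL1;p53R172H/+ DMSO replicates 1 and 2, at 7.76 and 7.48, lay below the other 6 DMSO libraries (11.5 to 19.3), and the lowest ratio was that of ibrutinib replicate 3. Relative to the summed B-cell markers, the range was wider, at 11.6-fold, from 10.3 per 100 in Eμ-TCL1;p53R172H/+ DMSO replicate 1 to 119.5 in Eμ-TCL1 DMSO replicate 2. On that scale the log2 difference between genotypes was -1.31 in DMSO (exact permutation p = 0.0536) and -0.71 in ibrutinib (exact permutation p = 0.314). Ighm itself was 266.0, 471.9 and 538.8 in the libraries with high T-cell markers and between 3079.7 and 10357.9 in the other 12. Per 100 of Ighm, the Ighv signal of the DMSO table averaged 14.6 ± 4.10 (SD, n = 3) for Eμ-TCL1 and 12.9 ± 4.95 (SD, n = 5) for Eμ-TCL1;p53R172H/+. For ibrutinib these means were 13.1 ± 4.03 (SD, n = 3) and 10.5 ± 4.77 (SD, n = 4), and the ranges of the genotypes overlapped in both tables.

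**Figure D3:**
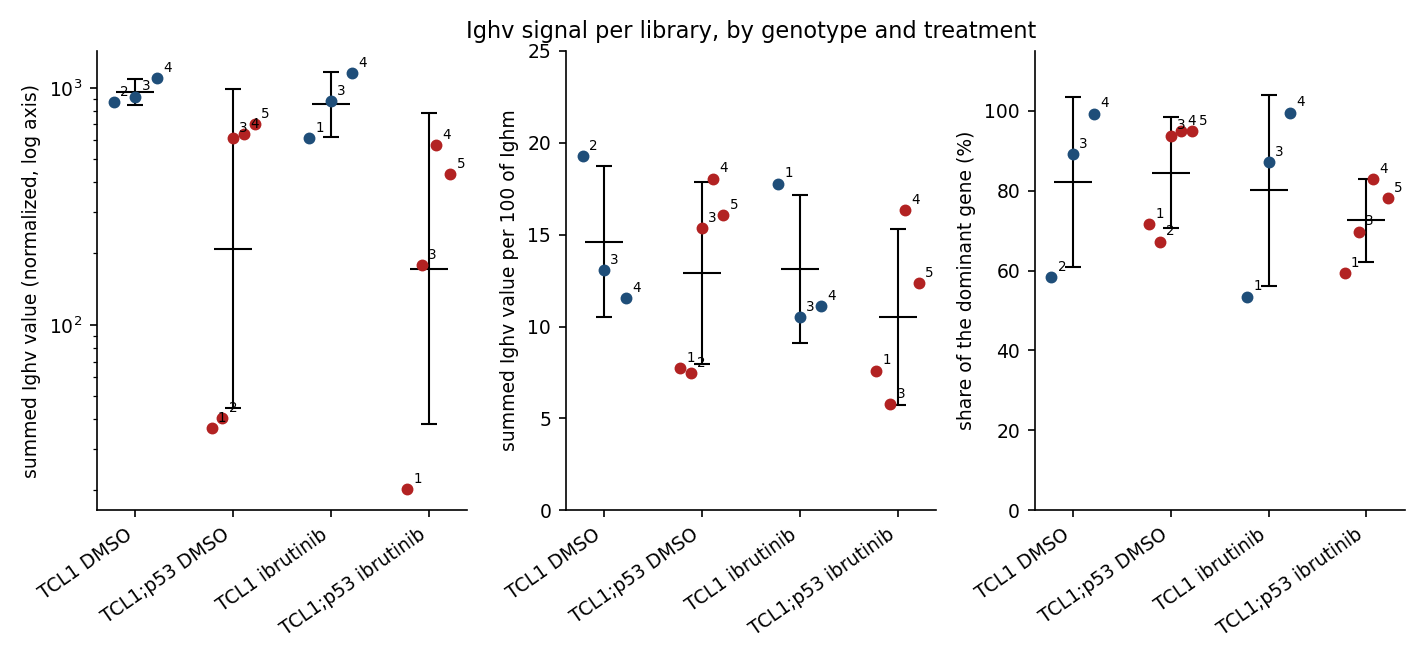
Summed Ighv value (left, log axis), summed Ighv value per 100 of Ighm (middle) and share of the dominant Ighv gene in percent (right) for each library, by genotype (TCL1 for Eμ-TCL1 in blue, TCL1;p53 for Eμ-TCL1;p53R172H/+ in red) and treatment, with replicate numbers beside the points. Bars give the mean and SD, taken on the log scale on the left, and the 3 libraries near the bottom of the left panel, with sums of 20.2, 36.6 and 40.3, lie among the 4 lowest in the middle panel, at 7.59, 7.76 and 7.48.

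Gene by gene, the genotypes were compared over all genes of each table with limma on log2 of the value plus 1, given as Eμ-TCL1;p53R172H/+ minus Eμ-TCL1. In DMSO, 1 of 58 Ighv genes passed an adjusted p of 0.05, against 0.0121% of all genes tested (2 of 16470). This was Ighv1-55, whose mean was 703 ± 458 (SD, n = 3) over Eμ-TCL1 libraries and 1.34 ± 0.654 (SD, n = 5) over Eμ-TCL1;p53R172H/+ libraries. It fell by 7.97 on the log2 scale (standard error 0.56, limma adjusted p = 0.00524). The limma call held in 12 of 16 alternatives. Among those that lost it were the fits without Eμ-TCL1 replicate 3 (adjusted p = 0.0774), without the libraries with high T-cell markers (adjusted p = 0.0802) and with alike libraries averaged (adjusted p = 0.149), while the difference stayed between -8.82 and -6.49 in all 16. A second Ighv gene was lower at an unadjusted p under 0.05 (background 4.65% of all genes), Ighv2-9-1, with 1.3, 0.5 and 0 in Eμ-TCL1 and at most 0.1 in Eμ-TCL1;p53R172H/+ (log2 difference -0.57, standard error 0.25, limma adjusted p = 0.609). None of the 58 was higher at that level (background 3.52%).

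In ibrutinib, 0 of 64 Ighv genes passed in limma, and 0% of all 16428 genes did. At an unadjusted p under 0.05, 1 Ighv gene was lower (background 6.32%) and 1 was higher (background 5.69%). The lower one was Ighv1-55, whose mean was 691 ± 496 (SD, n = 3) over Eμ-TCL1 libraries and 2.05 ± 2.32 (SD, n = 4) over Eμ-TCL1;p53R172H/+ libraries. Its log2 difference was -7.70 (standard error 0.78, limma adjusted p = 0.103). Without Eμ-TCL1 replicate 1 its limma adjusted p was 0.0341, so its side of the threshold depended on 1 library. The higher one was Ighv11-2, with values between 3.6 and 14.1 in Eμ-TCL1;p53R172H/+ and between 0.2 and 2.0 in Eμ-TCL1 (log2 difference 2.05, standard error 0.52, limma adjusted p = 0.255).

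Few members separated the groups completely. In DMSO, 1 of 58 genes (Ighv1-55) was lower in all Eμ-TCL1;p53R172H/+ libraries than in all Eμ-TCL1 libraries, against 2.93% of all genes. In the other direction 1 gene did so (Ighv12-3, against 3.52%), with values of 0.9 to 606.3 and 0.2 to 0.7. In ibrutinib, Ighv1-55 was lower without overlap (1 of 64, background 5.97%) and Ighv11-2 was higher (1 of 64, background 6.68%). Ighv12-3 had log2 differences of 3.44 (standard error 1.71, limma adjusted p = 0.636) in DMSO and 3.86 (standard error 1.85, adjusted p = 0.456) in ibrutinib, and Ighv6-3 had 3.37 (standard error 2.40, adjusted p = 0.656) and 2.28 (standard error 1.85, adjusted p = 0.610). Each of them was high in only some libraries of its group.

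**Figure D4:**
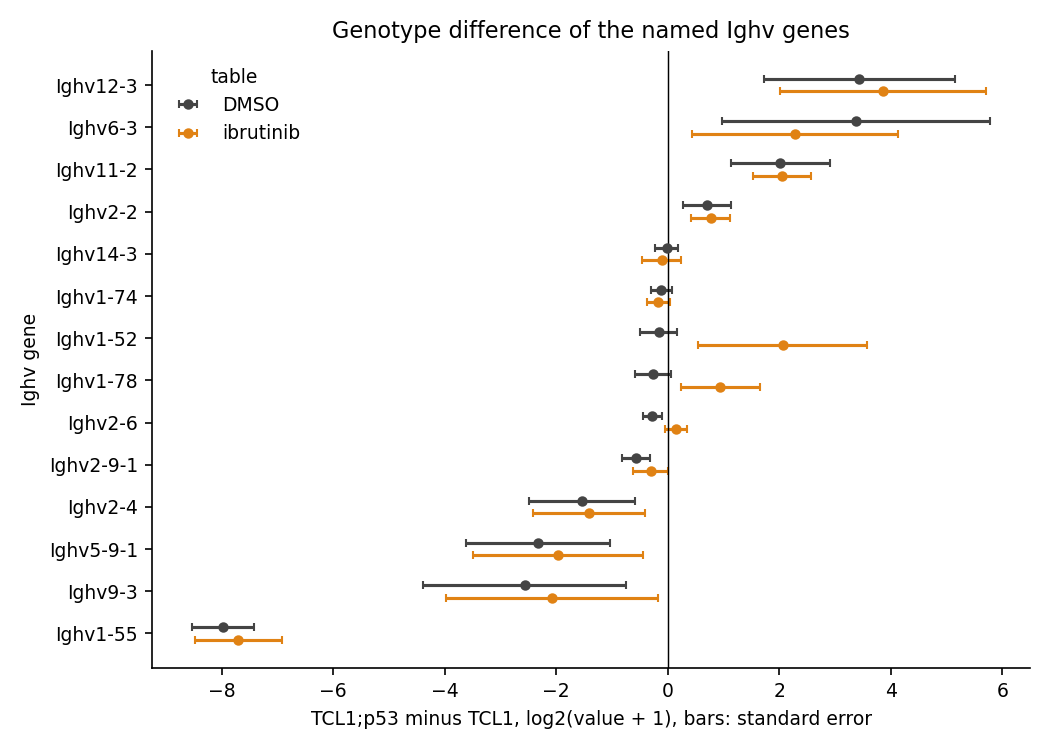
Log2 difference, Eμ-TCL1;p53R172H/+ (TCL1;p53) minus Eμ-TCL1 (TCL1) (horizontal axis, log2 of the value plus 1) for the 14 named Ighv genes (vertical axis), with standard errors from limma, in DMSO (gray) and ibrutinib (orange). Ighv1-55 lies near -8 in both tables, with a log2 difference of -7.97 in DMSO and -7.70 in ibrutinib, and the widest bar is that of Ighv6-3 in DMSO (standard error 2.40).

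Across all members, the direction rested on single libraries. In DMSO, 49 of 58 genes had a lower fitted value in Eμ-TCL1;p53R172H/+, with a median log2 difference of -0.28 against 0.04 for all genes. Without Eμ-TCL1 replicate 2, the library with the broadest set of V genes, 6 of 58 were lower and the median was 0.17. In ibrutinib, 38 of 64 had a higher fitted value, with a median of 0.12 against -0.05 for all genes. Without Eμ-TCL1 replicate 1, 59 of 64 were higher, and without Eμ-TCL1 replicate 3, 29 of 64 were.

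Ibrutinib was not tested against vehicle directly, since the tables may have been scaled separately. The test of the interaction asked whether the genotype difference differed between treatments. An effect of ibrutinib common to both genotypes cancels in it. Of 55 Ighv genes in both tables, 0 passed in limma, as did 0% of all 15869 genes. At an unadjusted p under 0.05 there were 0 Ighv genes, but also only 0.523% of all genes. With same-numbered libraries of a genotype as a block, 0 Ighv genes and 4.98% of all genes were at that level. For Ighv1-55 the interaction was 0.27 (standard error 1.0, limma adjusted p = 1). The shares, in which the scaling cancels, are given side by side without a test. The dominant gene of Eμ-TCL1 replicate 4 held 99.3% in DMSO and 99.5% in ibrutinib, and that of replicate 3 held 89.1% and 87.2%. The dominant gene of Eμ-TCL1;p53R172H/+ held 71.6% and 59.4% in replicate 1, 94.9% and 83.0% in replicate 4, and 94.9% and 78.2% in replicate 5. In replicate 3 of that genotype, where the dominant genes differed, it was 93.8% and 69.7%. For Eμ-TCL1, DMSO replicate 2 had 58.4% and ibrutinib replicate 1 had 53.5%, with Ighv9-3 dominant in both. Over the 5 shared numbers with the same dominant gene, ibrutinib minus DMSO ran from -16.7 to 0.196 percentage points. The -24.1 of Eμ-TCL1;p53R172H/+ replicate 3 sets 2 different genes side by side, in libraries whose Xist also differed (1491.3 and 1.0). Whether the differences depend on genotype was not tested. Cell markers differed as well. In Eμ-TCL1;p53R172H/+ replicates 4 and 5, B-cell markers summed to 5049.7 and 4309.9 in DMSO and 1827.0 and 1574.7 in ibrutinib. T-cell markers summed to 225.9 and 267.5 in DMSO and 668.1 and 860.4 in ibrutinib. In replicate 1 of that genotype they were 2974.6 and 1993.0. In Eμ-TCL1 they were 163.1 and 141.9 in replicate 3 and 596.8 and 500.2 in replicate 4. The part of other cells in the shares was not tested.

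Libraries were also compared by their whole Ighv profile, as the sum over genes of the smaller of the 2 shares. Over all 105 pairs of libraries, the 14 pairs with the same dominant gene had 82.8% to 99.7% of their profile in common, and the 91 pairs with different dominant genes had 0.209% to 27.3%. All 54 pairs between genotypes were among the latter, with at most 18.4%. Low values were also common within a genotype. Of its 51 pairs, 14 had the same dominant gene, and the median was 14.0% (3.91% to 99.7%). The closest library by Ighv profile did not always carry the same replicate number. Eμ-TCL1 DMSO replicate 2 shared 93.4% with ibrutinib replicate 1, and Eμ-TCL1;p53R172H/+ DMSO replicates 3 and 5 shared 98.5%, while DMSO and ibrutinib replicate 3 of that genotype shared 5.35%. DMSO replicates 1 and 2 of Eμ-TCL1;p53R172H/+ shared 91.6%.

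**Figure D5:**
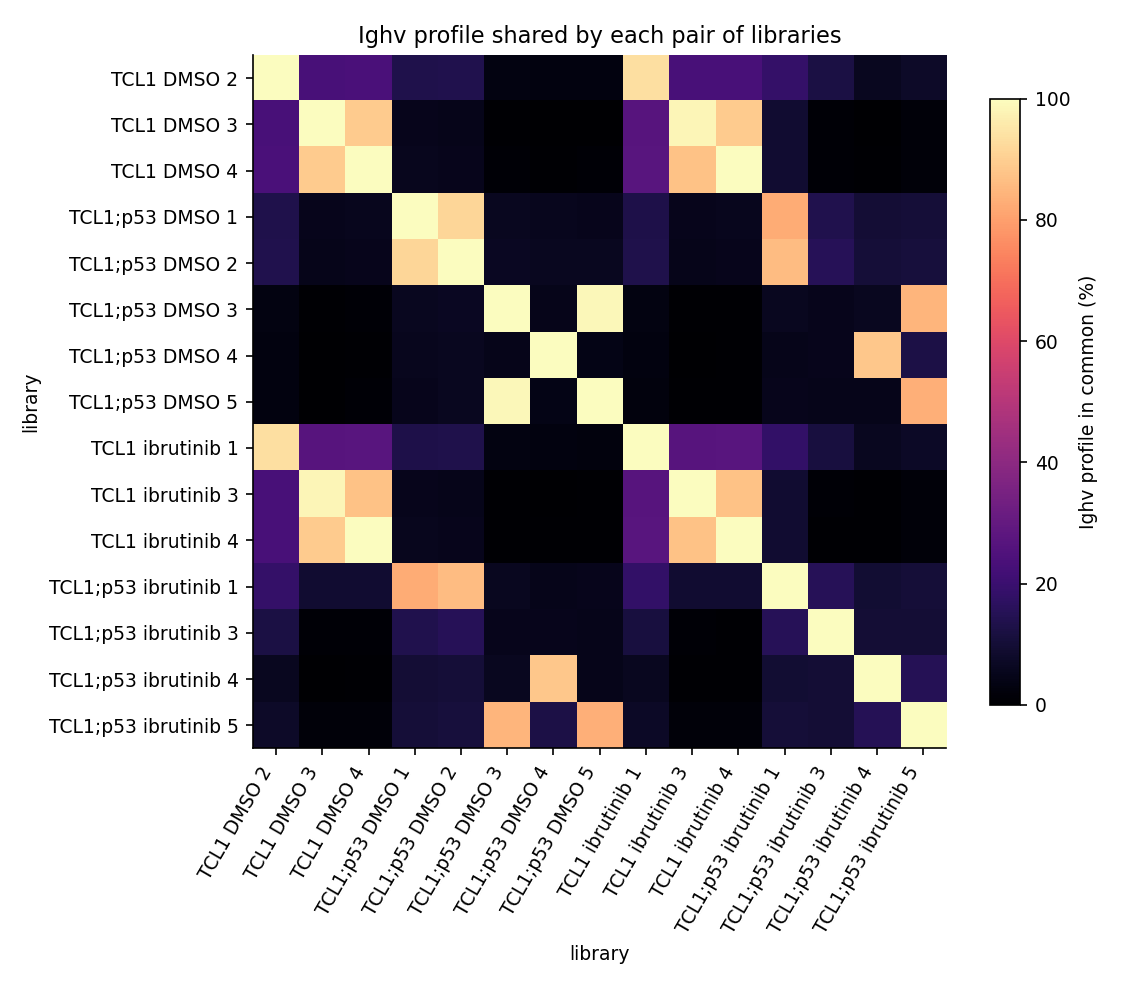
Ighv profile in common between each pair of the 15 libraries (color, percent; rows and columns are libraries in the same order, TCL1 for Eμ-TCL1 and TCL1;p53 for Eμ-TCL1;p53R172H/+). Bright blocks join libraries with the same dominant gene, and the blocks between Eμ-TCL1 and Eμ-TCL1;p53R172H/+ are dark, at 18.4% or less. Pairs within a genotype with different dominant genes are dark too, at 27.3% or less.

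The libraries were also set side by side on other genes. Over 10580 genes outside the antigen receptor loci, the SD of the log2 difference was 0.28 between Eμ-TCL1 DMSO replicate 2 and ibrutinib replicate 1, the smallest of all 105 pairs. It was 0.46 between Eμ-TCL1;p53R172H/+ DMSO replicates 3 and 5, 0.46 between replicates 1 and 2, and 1.23 between DMSO and ibrutinib replicate 3. Within a genotype, the median was 0.64 over the 14 pairs with the same dominant gene and 1.23 over the 37 pairs with different ones, and the ranges overlapped (0.28 to 0.93 and 0.51 to 1.57). Over the 54 pairs between genotypes, which all had different dominant genes, the median was 1.21 (0.66 to 1.69). Libraries enter many pairs each, and pairs include both treatments, so these medians are a description. Xist was 1491.3 and 837.6 in Eμ-TCL1;p53R172H/+ DMSO replicates 3 and 5 and 1.0 in ibrutinib replicate 3. Ddx3y, a gene of the Y chromosome, was 0.1 and 0 in those DMSO libraries and 82.1 in that ibrutinib library. DMSO and ibrutinib replicate 3 of this genotype thus differ in transcripts of both sex chromosomes. The labels do not say which libraries came from 1 mouse.

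Diversity and joining segments followed the dominant V gene in part. Ighd4-1, a D segment, was 1.5, 2.4 and 2.1 in the 3 Ighv6-3 libraries and did not exceed 0.3 elsewhere. Ighd1-1 was 2.1 and 2.5 in Eμ-TCL1 replicate 4 and 1.0 and 0.8 in the Ighv12-3 libraries, and at most 0.1 elsewhere. Ighj1, the first joining segment, was 12.5 and 17.3 in Eμ-TCL1 replicate 3, 11 and 17.7 in replicate 4 and 6.4 and 6.0 in the Ighv12-3 libraries, against at most 1.3 in all others. Ighj4 followed this split only in part. It was 11.5 to 29.0 in the libraries with high Ighj1 and 12.1, 10.1 and 7.4 in the Ighv6-3 libraries. In the libraries of neither set it was 0.3 to 6.9. These segments are counted on germline exons, and how reads across a junction were assigned is not given in the sources used here.

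The leading light-chain V gene changed with the heavy-chain one. It was Igkv12-46 in the 3 Ighv6-3 libraries, Igkv4-91 in both Ighv12-3 libraries, Igkv14-126 in the 3 Ighv11-2 libraries, Igkv19-93 in the Ighv1-52 library, Igkv3-5 in both Ighv9-3 libraries and Igkv12-89 in the 4 Ighv1-55 libraries, with 34.7% to 93.4% of the light-chain V signal. Igkv14-126 with Ighv11-2 and Igkv4-91 with Ighv12-3 are the pairs known from phosphatidylcholine-binding B-1 cells. Among constant genes, Ighg3 was 186.1 and 160.9 in Eμ-TCL1 replicate 3 and 33.6 and 31.3 in replicate 4. It was 37.0 and 92.6 in the Ighv12-3 libraries and at most 8.0 elsewhere. Ighg2b was 93.7 and 85.9 in the Ighv9-3 libraries and at most 11.9 elsewhere.

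The rest of the locus and the machinery of V(D)J recombination gave no call between genotypes. Of 13 heavy-chain constant, joining and diversity genes in DMSO, 0 passed in limma (1 lower at an unadjusted p under 0.05, background 4.65%), with a median log2 difference of -1.01. Of the 14 in ibrutinib, 0 passed (0 at an unadjusted p under 0.05), with a median of -0.41. The lowest p was that of Ighj1 in DMSO (log2 difference -1.82, standard error 0.77, limma adjusted p = 0.607). Of the genes for recombination and receptor assembly, such as Rag1 and Rag2, the recombinase, and Cd79a and Cd79b, the signaling chains of the receptor, 0 of 20 passed in DMSO (0 at an unadjusted p under 0.05) and 0 of 19 in ibrutinib (1 higher at that level, background 5.69%). The lowest p in that list was that of Xrcc5, a subunit of the Ku end-binding complex, in ibrutinib (log2 difference 0.74, standard error 0.30, limma adjusted p = 0.400).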

How the data were processed

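RNA-seq of cultured splenic B-cells from 15 libraries was used. The values are signal, deposited by the authors as library-scaled read counts (CPM) in 2 tables, 1 for each treatment; the submitters' processing notes name the build mm10 (GRCm38), TopHat2 2.0.12 and SAMtools 0.1.19. Per the study's methods, reads were summed per gene with HTSeq, and the authors normalized the counts with edgeR. Genes of low expression had been filtered out, and values are rounded to 0.1. The tables may have been scaled separately, so levels were tested within a table only. Levels set side by side over both tables are a description. Whole reads could not be recovered and the depth is unknown.

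All rows whose symbol starts with Ighv were taken. The members and gene lists were chosen with earlier results of these data known. Genotypes were compared over all genes of a table with limma 3.58.1 (R 4.3.3) on log2(value + 1), with p-values adjusted by Benjamini-Hochberg over all genes and called at 0.05. Two-sided exact permutation tests (scipy 1.17.1, Python 3.11.15) were used for the summed level, the share of the dominant gene and the effective number of genes, adjusted over these 6 tests. Both the limma and the share computations were tested on simulated data. Genes were named if they were the highest in a library, held at least 10% of a library's Ighv signal, were Ighv11-2 or Ighv12-3, passed the threshold, or, where under 5 passed, were among the 3 with the lowest p in each direction. Of the other lists, the gene with the lowest p was named. Other gene names were chosen after their values were seen. V sequences came from GENCODE M21. Alternatives were other pseudocounts, quantile normalization, sample quality weights, a filter on low means, a replicate block, other measures of level, share and spread, and leaving out libraries. Division by exon length and averaging of alike libraries (Eμ-TCL1;p53R172H/+ DMSO replicates 1 and 2, and 3 and 5) were chosen after seeing the data. The authors deposited no fold changes in these tables.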

Additional observations from a re-analysis of the deposited data

Results flagged for a closer look

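In groups of 4 or 5 libraries, 32 sets of values of the named genes and quantities were searched for a library far from the others, measured as its gap to the nearest library divided by the range of the group on the log2(value + 1) scale. Chance marks about 1 in 20 such sets, and 4 were marked. Ighv1-55 in Eμ-TCL1;p53R172H/+ DMSO replicate 4, at 0.3, lay below the other 4 libraries (1.3 to 1.9), with a gap of 0.711 of the range. The other 3 concern values near 0, where the gap was the whole range (1). Ighv2-9-1 was 0.1 in Eμ-TCL1;p53R172H/+ DMSO replicate 2 and listed at 0 in the other 4. Ighv2-4 was 0.1 in ibrutinib replicate 5 of that genotype and listed at 0 in the other 3. Ighv2-6 was 0.6 in ibrutinib replicate 3 and 0.1 in the other 3. In the last 3, the gap is 1 to a few rounding steps of 0.1.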

How the results depend on the processing

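The genotype difference of the summed Ighv level was negative under every alternative run and passed the threshold in 1, with the mean of ranks in DMSO (-4, exact permutation p = 0.0357). Leaving out 1 library gave -2.63 to -1.56 in DMSO and -2.88 to -1.27 in ibrutinib. The share of the dominant gene (difference in percentage points) changed sign in DMSO with the 2 highest genes together (-4.93), per exon length (-0.367) and without 1 library (-9.70 to 10.7), and in ibrutinib with genes of at least 5 only (9.23) and without 1 library (-20.8 to 2.24). The effective number (log2) changed sign in DMSO with the Shannon measure (0.18), per exon length (0.0437) and without 1 library (-0.32 to 0.34), and in ibrutinib with genes of at least 5 only (-0.25) and without 1 library (-0.00275 to 0.73). The causes were not tested. In DMSO, the count of Ighv genes called by limma went from 1 to 0 without the libraries with high T-cell markers, with alike libraries averaged, and without Eμ-TCL1 replicate 3 (0 to 1 over the libraries left out). In ibrutinib it went from 0 to 1 with sample quality weights and without Eμ-TCL1 replicate 1 (0 to 1). With the replicate number as a block, where numbers held by 1 genotype only add nothing to its comparison, 0 genes were called in DMSO (Ighv1-55 limma adjusted p = 0.760), and it changed no other call. The numbers do not pair the libraries of the genotypes, since the correlations of same-numbered deviations were 0.19, 0.28 and 0.05 in DMSO and -0.05, -0.20 and -0.18 in ibrutinib. Between treatments they were 0.82 and 0.83 for Eμ-TCL1 replicates 3 and 4 and 0.80, -0.11, 0.75 and 0.76 for Eμ-TCL1;p53R172H/+ replicates 1, 3, 4 and 5, so not every same-numbered pair deviated together. Ighv1-55 kept a negative difference in all alternatives, with adjusted p from 3.52e-06 to 0.760 in DMSO and 0.00806 to 0.501 in ibrutinib. Single genes with no call changed sign as follows (log2 difference). With quantile normalization the DMSO values were 0.0424 for Ighv1-52, 0.0586 for Ighv1-74 and 0.18 for Ighv14-3, and Ighv14-3 was 0.0258 in ibrutinib. With sample quality weights the DMSO values were 0.17 for Ighv1-52, 0.11 for Ighv1-74, 0.27 for Ighv1-78, 0.17 for Ighv14-3 and 0.28 for Ighv9-3, and the ibrutinib values were 0.0442 for Ighv1-74, 0.21 for Ighv14-3, 0.10 for Ighv2-9-1 and 0.13 for Ighv9-3. Ighv14-3 was 0.27 in DMSO and 0.41 in ibrutinib with a pseudocount of 0.1, and in DMSO 0.0775 with the block and 0.000514 with alike libraries averaged. Without 1 library, the DMSO ranges were -0.43 to 0.23 for Ighv1-52, -0.25 to 0.0895 for Ighv1-74, -0.48 to 0.18 for Ighv1-78, -0.17 to 0.21 for Ighv14-3, -2.30 to 0 for Ighv2-4 and -4.06 to 0.36 for Ighv9-3. In ibrutinib they were -0.32 to 0.0658 for Ighv1-74, -0.33 to 0.34 for Ighv14-3, -2.13 to 0.0344 for Ighv2-4, -3.20 to 0.20 for Ighv5-9-1 and -3.54 to 0.64 for Ighv9-3. Values near 0 are limited by rounding to 0.1, and the depth is unknown.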

Other observations

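Genes of the tables that are no Ighv genes also set the 2 Ighv9-3 libraries apart. Rag1, a recombinase subunit, was 23.8 and 19.8 in Eμ-TCL1 DMSO replicate 2 and ibrutinib replicate 1 and no more than 2.5 elsewhere, and Igha, the IgA constant gene, was 43.7 and 30.1 in them and no more than 11.8 elsewhere.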
